A study of Rattus norvegicus with 9 samples.

Results

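The hypoxia response was followed through Hif1a, which encodes the oxygen-regulated subunit of hypoxia-inducible factor 1, and 4 genes known as its targets: Vegfa, Slc2a1, Ldha and Gapdh. They were chosen by their Ensembl IDs, ENSRNOG00000008292 for Hif1a, ENSRNOG00000019598 for Vegfa, ENSRNOG00000007284 for Slc2a1, ENSRNOG00000013009 for Ldha and ENSRNOG00000018630 for Gapdh. All 5 are among the 30560 IDs of the count tables, 0 are missing, and all 5 passed the filter on low counts. The names were given with the choice of genes, since the count tables hold IDs alone.

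RNA was measured in 9 libraries of rat heart cardiomyocytes, labelled NRCM, in 3 groups of 3. The normoxia group did not go through hypoxia. The H/R-DMSO group went through H/R, hypoxia followed by reoxygenation, which mimics in a dish the loss and return of blood flow to the heart. It spent 6 h at 0.1% oxygen without glucose and pyruvate, and then 12 h at 21% oxygen in ordinary medium with the solvent DMSO. The H/R-AS8351 group had 0.5 µM AS8351 during the same reoxygenation, a compound that the labels call an inhibitor of the histone demethylase Kdm5b. No genetic change is described in any group. No group labelled as hypoxia without reoxygenation was analysed here, so the levels at the end of the 6 h are not known. Whether normoxia cells also had DMSO and the same changes of medium is not stated in the labels. Nor is it stated that replicates are separate cultures, so each p-value rests on a spread between libraries that may be technical.

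When oxygen is plentiful, prolyl hydroxylases mark the Hif1a protein for destruction; when it is scarce, the protein is spared, pairs with Arnt and binds hypoxia response elements near its targets. The factor is thus controlled mainly as a protein, which RNA libraries do not measure. The prolyl hydroxylases and the Kdm5 demethylases belong to the same family of oxygenases, which use oxygen, iron and 2-oxoglutarate. Among the targets, Vegfa encodes the growth factor that drives vessel growth. Slc2a1 encodes the glucose transporter GLUT1, Gapdh a glycolytic enzyme, and Ldha the lactate dehydrogenase subunit that turns pyruvate into lactate.

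The upstream sequence of the targets is shown with a search for the core of a hypoxia response element. Whether such a core bears on the changes described below was not tested. Promoter entries of RefSeq on build GRCr8 were matched by symbol for 5 of 5 genes. The 250 bases before the RNA start are printed 5′ to 3′ for the 3 targets whose entry lies at the start of the gene, and 30 bases around the ACGTG match for Gapdh. Capitals mark ACGTG and GCGTG, the 2 forms of the core searched, on either strand, so that CACGT and CACGC are matches on the other strand.
Vegfa, chr9:22452604-22452853, strand +: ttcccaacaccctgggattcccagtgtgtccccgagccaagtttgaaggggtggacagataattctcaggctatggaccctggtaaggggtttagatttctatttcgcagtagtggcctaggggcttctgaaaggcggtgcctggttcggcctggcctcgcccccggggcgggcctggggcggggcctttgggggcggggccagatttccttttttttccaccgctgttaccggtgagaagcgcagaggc
Slc2a1, chr5:138002272-138002521, strand +: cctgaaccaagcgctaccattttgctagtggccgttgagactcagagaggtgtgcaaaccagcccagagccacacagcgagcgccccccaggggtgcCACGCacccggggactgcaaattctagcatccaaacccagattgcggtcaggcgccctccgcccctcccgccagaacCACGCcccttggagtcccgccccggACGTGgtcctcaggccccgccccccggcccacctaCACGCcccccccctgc
Ldha, chr1:106507842-106508091, strand +: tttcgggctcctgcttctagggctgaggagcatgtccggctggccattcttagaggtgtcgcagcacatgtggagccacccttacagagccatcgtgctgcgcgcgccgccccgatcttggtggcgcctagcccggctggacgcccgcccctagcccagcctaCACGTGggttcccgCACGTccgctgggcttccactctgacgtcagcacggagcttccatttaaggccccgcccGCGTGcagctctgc
Gapdh, chr4:159652571-159652600, strand -: gctttacgggtgCACGTagctcaggcctct

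The Ldha window held 3 ACGTG matches and 1 GCGTG match. The ACGTG matches begin 87, 86 and 73 bases before the RNA start, and the first 2 overlap in the palindrome CACGTG. Slc2a1 had 1 ACGTG match, 51 bases before the start, and 3 GCGTG matches. The Gapdh window had 1 ACGTG match and 2 GCGTG matches, and the Hif1a window, not printed, 3 ACGTG matches. Vegfa had 0 matches in this window and 0 in its other entry inside the gene. Sequence outside these windows was not searched, so a match farther away would not be seen. Such short motifs are common: of 33469 promoter entries, 16.6% hold ACGTG in the same window, 25.9% hold GCGTG and 36.7% hold at least 1 of them. A match is a run of letters and does not show binding.

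The libraries held between 34442733 and 54888975 counts, and each of the 5 genes had between 4585 and 196194 counts in every library. Levels are given as CPM, counts per 1000000 counts of the library, after TMM scaling, which sets the bulk of genes level between libraries. Levels are compared only within a gene, since no transcript lengths were at hand. A bulk library does not tell fewer cells of a type from less RNA per cell. Markers of cardiomyocytes and other heart cells were not analysed here, because the tables at hand pair 0 Ensembl IDs with symbols.

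The first comparison asks whether the hypoxia targets were still raised after 12 h of reoxygenation. They were not raised: all 4 targets were lower in H/R-DMSO than in normoxia, between 2.18-fold and 5.28-fold, while Hif1a itself differed by 6.81%. Together the 4 targets took 0.837% ± 0.0130 (SD, n = 3) of all counts in normoxia and 0.340% ± 0.0105 in H/R-DMSO. Most of this sum came from Gapdh and Ldha, which held 0.369% and 0.254% of the counts in normoxia. By edgeR's quasi-likelihood test at an adjusted p below 0.05, 4 of the 5 genes were lower, where 25.2% of the 15879 genes tested were, and 0 were higher, where 27.5% were. The median log2 fold change was -1.49 over the 5 genes and 0.03 over all genes tested.

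Vegfa stood at 1803, 1819.6 and 1809.9 CPM in the normoxia libraries and at 344.4, 347.5 and 336.6 CPM in the H/R-DMSO libraries. The SD within either group was at most 1.65% of the mean, and the gap between them was wide. Vegfa fell from a mean of 1811 CPM (SD 8.49, n = 3) to 343 CPM (SD 5.65), for which edgeR gave a log2 fold change of -2.40, with SE 0.03 (adjusted p = 1.03e-40). Of the 4003 genes called lower, 101 fell further.

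Slc2a1 stood at 466.5, 453.8 and 473.3 CPM in normoxia and at 122.5, 140.9 and 136.1 CPM in H/R-DMSO. Every H/R-DMSO library was far below every normoxia library, and the H/R-DMSO libraries varied by 7.16% of their mean, the widest relative spread of any target in any group. Slc2a1 fell from a mean of 465 CPM (SD 9.89, n = 3) to 133 CPM (SD 9.53), for which edgeR gave a log2 fold change of -1.80, with SE 0.04 (adjusted p = 1e-32). In the same comparison 223 genes fell further.

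Ldha, at the end of glycolysis, stood at 2689, 2723 and 2745 CPM in normoxia and at 952.1, 982 and 965.2 CPM in H/R-DMSO. The groups did not overlap. Ldha fell from a mean of 2719 CPM (SD 28.1, n = 3) to 966 CPM (SD 15.0), for which edgeR gave a log2 fold change of -1.49, with SE 0.03 (adjusted p = 4.57e-34). Gapdh, in the middle of glycolysis, stood at 3947, 3814 and 4088 CPM in normoxia and at 1729.6, 1889 and 1811 CPM in H/R-DMSO. It had the smallest change of the 4 targets, from a mean of 3949.7 CPM (SD 137, n = 3) to 1809.8 CPM (SD 79.9), for which edgeR gave a log2 fold change of -1.13, with SE 0.04 (adjusted p = 1.14e-27). Gapdh and Ldha have many pseudogene copies in rodent genomes, and how multi-mapping reads were counted is not given in the sources used here, so counts of these copies may enter their values or be missing from them.

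Hif1a RNA was not called different. It stood at 146.2, 152.4 and 146.1 CPM in normoxia and at 162.7, 153.5 and 158.9 CPM in H/R-DMSO, so that the highest normoxia library lay just under the lowest H/R-DMSO library. Such a separation was common, with 57.5% of all genes tested not overlapping between these groups. The difference was a log2 fold change of 0.10 (SE 0.04, 95% interval 0.01 to 0.18), and did not pass the threshold (adjusted p = 0.0561 by edgeR). The call was close: the adjusted p was 0.0331 by edgeR without replicate 2 of H/R-DMSO, 0.0459 without replicate 1 of H/R-AS8351 and 0.0413 with the replicate number as a block, within a range from 1.83e-06 to 0.162 over all alternatives. Scaled to the total count alone, the log2 fold change was 0.26 (adjusted p = 1.83e-06 by edgeR), but that scaling put the median of all genes at 0.19 instead of 0.03. The share of higher genes among all called genes was 74.3% under it and 52.1% under TMM, and the 4 targets were still lower, by log2 fold changes between -2.24 for Vegfa and -0.96 for Gapdh.

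**Figure D1:**
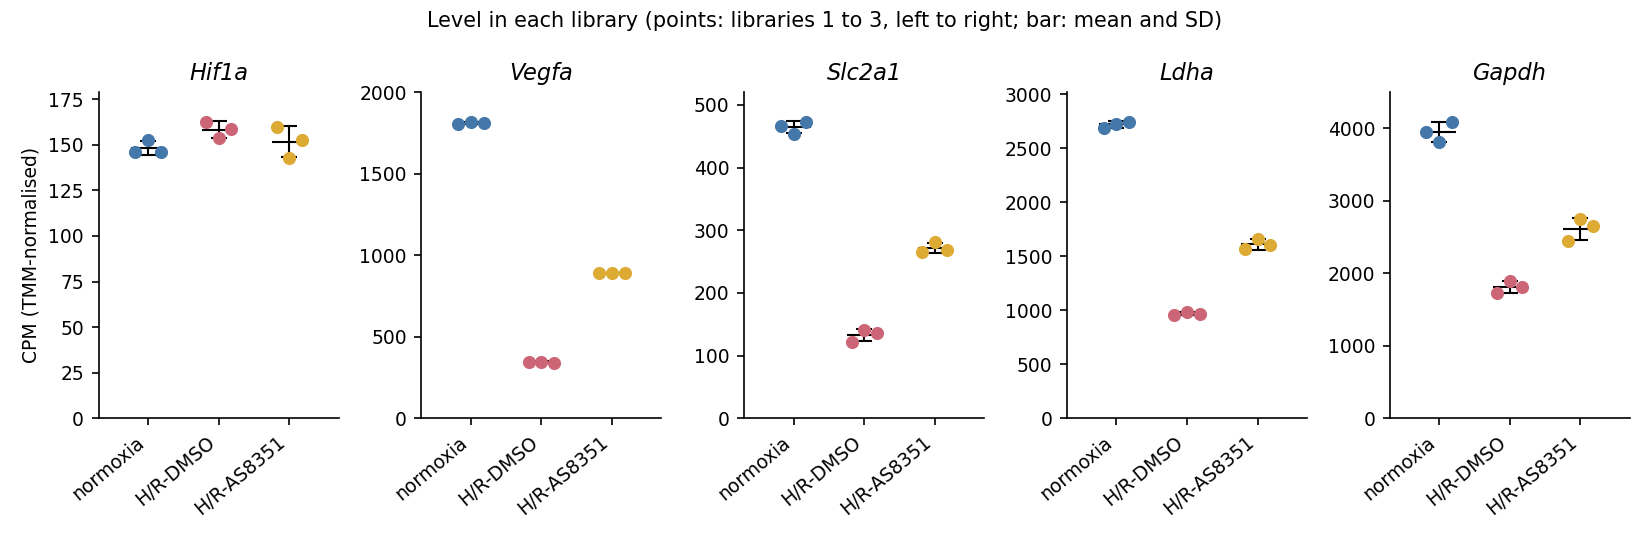
Level of each gene in every library, in TMM-normalised CPM on axes that start at 0, with the 3 libraries of a group from left to right and a bar for the mean and SD. Vegfa, Slc2a1, Ldha and Gapdh are highest in normoxia, lowest in H/R-DMSO and between them in H/R-AS8351, with no overlap of libraries, while the Hif1a libraries lie between 142.6 and 162.7 CPM in all 3 groups.

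The second comparison asks how AS8351, given during reoxygenation, shifted these genes. All 4 targets were higher with the compound, Vegfa 2.60-fold, Slc2a1 2.04-fold, Ldha 1.66-fold and Gapdh 1.44-fold, and Hif1a was not called. By the same test, 4 of the 5 genes were higher, where 13.1% of all genes tested were, and 0 were lower, where 9.97% were. The median log2 fold change was 0.73 over the 5 genes and -0.01 over all genes. The 4 targets together took 0.549% ± 0.0173 (SD, n = 3) of the counts in H/R-AS8351. The comparison uses the same H/R-DMSO libraries as the first, so that a deviation of these libraries would enter both with opposite sign.

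Vegfa stood at 890.8, 889.3 and 891.1 CPM in the H/R-AS8351 libraries. These values agree more closely than counting error alone would give, with a coefficient of variation of 0.107% where the counts give 0.509%. Against H/R-DMSO edgeR gave a log2 fold change of 1.38 with SE 0.03 (adjusted p = 1.41e-31), and 111 of the 2088 genes called higher rose further. Slc2a1 stood at 265.9, 281.3 and 269.3 CPM, each above the 140.9 CPM of the highest H/R-DMSO library. Its log2 fold change by edgeR was 1.03 with SE 0.04 (adjusted p = 2.36e-23).

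Ldha stood at 1567, 1659 and 1599 CPM with AS8351, for which edgeR gave a log2 fold change of 0.73, with SE 0.03 (adjusted p = 2.04e-22). Gapdh stood at 2448, 2740.5 and 2653 CPM, for which edgeR gave a log2 fold change of 0.53, with SE 0.04 (adjusted p = 1.24e-15). All of these lie above the H/R-DMSO libraries of the same gene. Between these 2 groups 35% of all genes tested did not overlap. Within the H/R-AS8351 group, replicate 1 was the lowest and replicate 2 the highest for Slc2a1, Ldha and Gapdh.

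For Hif1a the order within the group was the opposite. It stood at 159.7, 142.6 and 152.8 CPM with AS8351, a range that overlaps both other groups and is wider than theirs. The log2 fold change against H/R-DMSO was -0.06 (SE 0.04, adjusted p = 0.317 by edgeR), with a 95% interval from -0.15 to 0.02. As a percentage, Hif1a RNA differed by -4.27%, with an interval from -9.77% to 1.57%. Whether the RNA of the factor bears on the shift of the targets was not tested. With total count scaling, higher genes made up 41.0% of all called genes, where TMM gave 56.9%, and the log2 fold changes of the 4 targets were between 0.49 and 1.34.

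**Figure D2:**
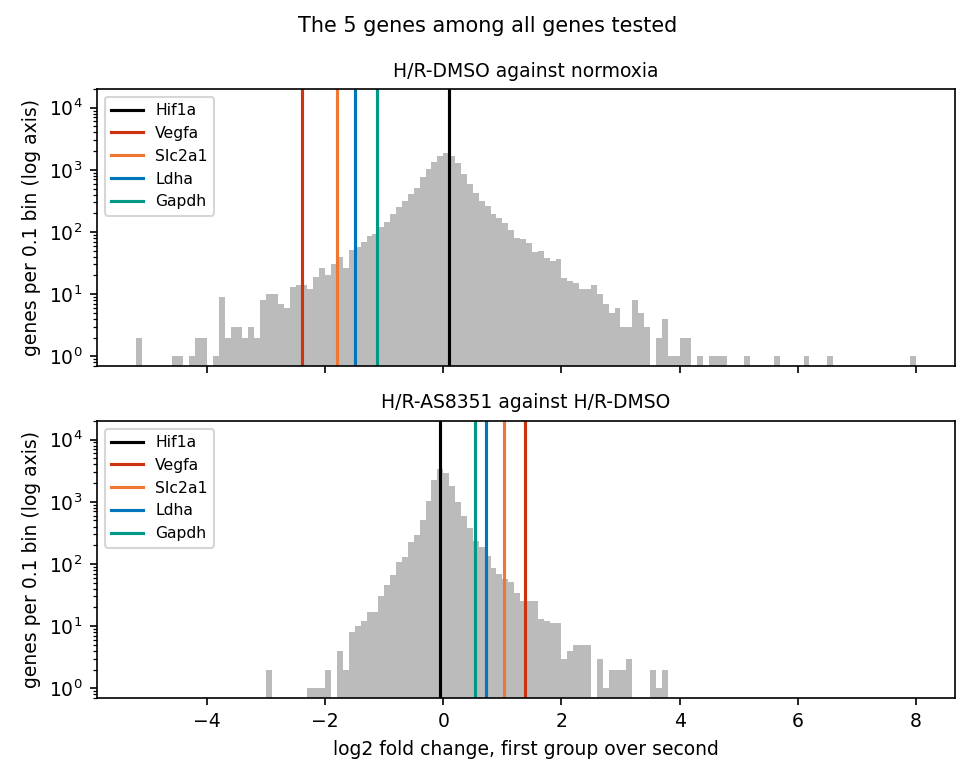
Number of genes per bin of 0.1 in log2 fold change on a log axis, for H/R-DMSO against normoxia (top) and H/R-AS8351 against H/R-DMSO (bottom), with coloured lines for the 5 genes. The targets lie in the lower tail at the top, between -2.40 and -1.13, and in the upper tail at the bottom, between 0.53 and 1.38, in reverse order, and Hif1a lies near the centre in both.

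The third comparison asks what still differed from normoxia with the compound. The 4 targets were all still lower, and Hif1a was not called (log2 fold change 0.03, 95% interval -0.05 to 0.12, adjusted p = 0.588 by edgeR). Here 4 of 5 genes were called lower by edgeR, where 19.7% of the genes tested were, and 0 higher, where 19.7% were. The libraries of the 4 targets did not overlap with those of normoxia, as was so for 48.9% of all genes. Vegfa was 2.03-fold lower than in normoxia, for which edgeR gave a log2 fold change of -1.02, with SE 0.03 (adjusted p = 2.06e-27). Slc2a1 was 1.71-fold and Ldha 1.69-fold lower, with log2 fold changes of -0.77 and -0.76, and Gapdh was 1.51-fold lower, with -0.60 (SE between 0.03 and 0.04, adjusted p = 9.52e-20 for Slc2a1, 3.47e-23 for Ldha and 9.39e-18 for Gapdh by edgeR). With total count scaling, higher genes made up 76.7% of all called genes, where TMM gave 49.98%. Under it Hif1a was called higher with a log2 fold change of 0.16 (adjusted p = 0.00226 by edgeR), and the targets were lower by log2 fold changes between -0.90 and -0.47. Without replicate 1 of H/R-AS8351 the Hif1a value was -0.01 (adjusted p = 0.936 by edgeR).

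**Figure D3:**
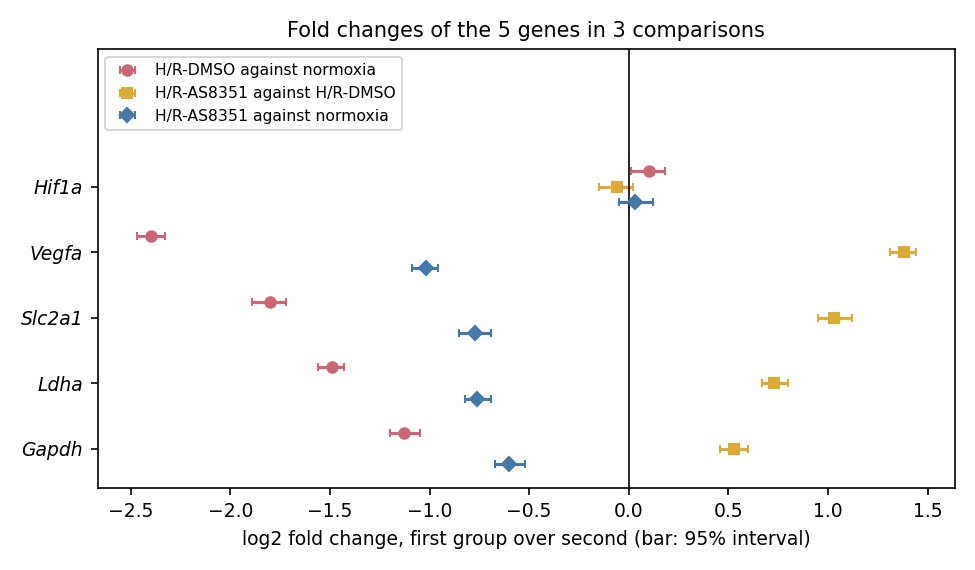
Log2 fold change of each gene in the 3 comparisons, with 95% intervals from the edgeR fit. For each target the H/R-DMSO value is the farthest below 0, the H/R-AS8351 value against normoxia is also below 0, and the value of H/R-AS8351 against H/R-DMSO is above 0, while the 3 Hif1a values are between -0.06 and 0.10.

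The place of H/R-AS8351 between the other groups depended on the scale. For the 4 targets it was between 36.6% and 41.9% on the CPM scale and between 47% and 57.4% on the log2 CPM scale. With the mean of H/R-DMSO at 0% and that of normoxia at 100% on the CPM scale, Vegfa stood at 37.3% ± 0.0648 (SD over 3 H/R-AS8351 libraries), Ldha at 36.6% ± 2.64, Gapdh at 37.6% ± 7.03 and Slc2a1 at 41.9% ± 2.43. These SDs take the means of H/R-DMSO and normoxia as fixed, so the spread of those groups is left out. Gapdh varied most, from 29.8% in replicate 1 to 43.5% in replicate 2. On the log2 CPM scale the places were 57.4% for Vegfa, 57.3% for Slc2a1, 49.2% for Ldha and 47% for Gapdh. No position is given for Hif1a, whose H/R-DMSO and normoxia levels were not called different.

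The targets had 1 order in the first 2 comparisons, which share the H/R-DMSO libraries: Vegfa changed most, then Slc2a1, Ldha and Gapdh. Ratios of counts within a library, which need no scaling between libraries, were used to compare neighbours in this order. From normoxia to H/R-DMSO the log2 ratio of Vegfa to Slc2a1 changed by -0.60, that of Slc2a1 to Ldha by -0.31 and that of Ldha to Gapdh by -0.37. With AS8351 against H/R-DMSO these ratios changed by 0.34, 0.30 and 0.21. The exact two-sided permutation p was 0.1 for each of these 6 changes, the smallest that 3 against 3 can give, and 0.112 adjusted over 9 ratios. The order was read from these same libraries, which fixed the direction of the 6 changes, so these p-values do not test the order. Between H/R-AS8351 and normoxia the ratio of Slc2a1 to Ldha differed by -0.01 (exact permutation p = 0.5), and the groups overlapped.

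Gapdh is often used as a reference gene, so the other 4 genes were also set against it. Ldha had 68.9 ± 2.23 counts per 100 Gapdh counts in normoxia (SD, n = 3), 53.4 ± 1.54 in H/R-DMSO and 61.6 ± 2.10 in H/R-AS8351. Vegfa had 45.9 ± 1.73, 19.0 ± 0.827 and 34.1 ± 2.03 in the same order, and Slc2a1 11.8 ± 0.166, 7.35 ± 0.235 and 10.4 ± 0.384. On this scale the fall of Vegfa after H/R was 2.42-fold, where TMM scaling gave 5.28-fold, and that of Slc2a1 was 1.60-fold, where it gave 3.49-fold. Hif1a, nearly level by TMM, had 3.76 ± 0.217 counts per 100 Gapdh counts in normoxia, 8.77 ± 0.640 in H/R-DMSO and 5.83 ± 0.663 in H/R-AS8351. Set against Gapdh it was therefore 2.33-fold higher after H/R and 1.51-fold lower with AS8351 than without.

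The 12 differences of these 4 ratios between groups each had an exact two-sided permutation p of 0.1, the smallest possible, also after adjustment over the 12. The groups overlapped in none of the 12. That is the usual case on this scale, where 91.3% of all genes did not overlap between H/R-DMSO and normoxia, 78.9% between H/R-AS8351 and H/R-DMSO and 81.8% between H/R-AS8351 and normoxia.

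**Figure D4:**
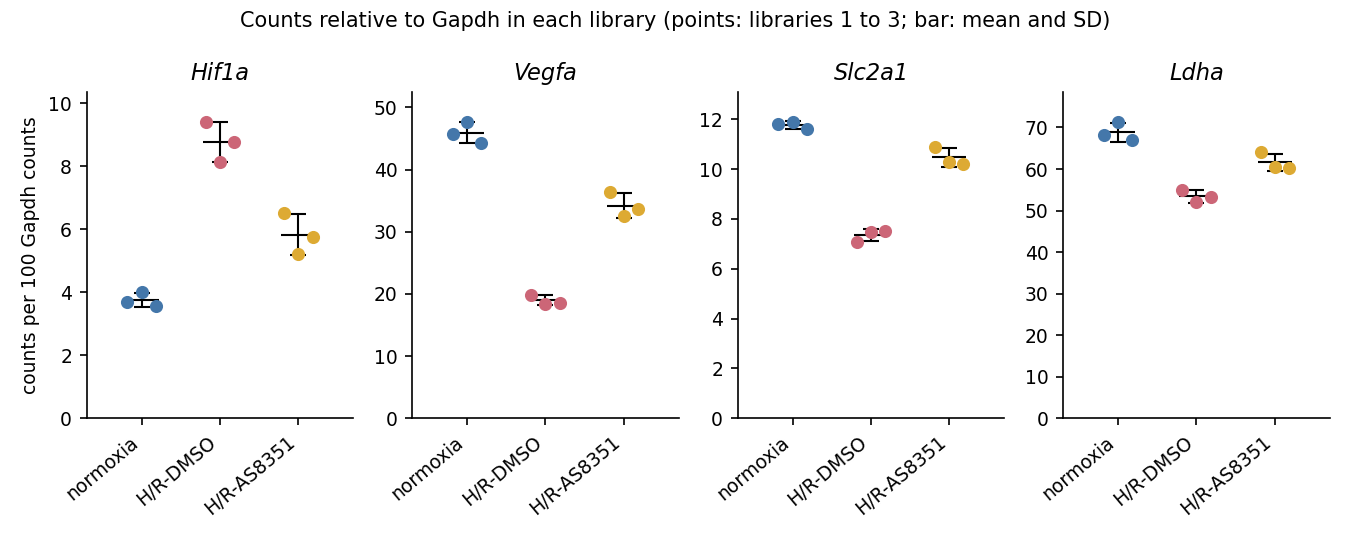
Counts of Hif1a, Vegfa, Slc2a1 and Ldha per 100 Gapdh counts in every library, with a bar for the mean and SD of the 3 libraries of a group and axes that start at 0. Hif1a is highest in H/R-DMSO, at 8.77, and lowest in normoxia, at 3.76, while the 3 targets have the opposite order.

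The genes most like each member were sought by the root mean square difference of log2 CPM over the 9 libraries, after each gene was centred on its own mean, among 11264 other genes that reached 5 CPM on average. These genes were chosen for their likeness, so no test is given. Nearest to Vegfa was ENSRNOG00000005053, with a difference of 0.0236 and levels of 537 ± 10.1 CPM in normoxia, 101 ± 2.77 in H/R-DMSO and 266 ± 6.47 in H/R-AS8351 (SD, n = 3). Nearest to Slc2a1 was ENSRNOG00000020812, with a difference of 0.0483 and levels of 357 ± 6.33, 107 ± 6.56 and 206 ± 2.61 CPM. Nearest to Hif1a was ENSRNOG00000025011, with a difference of 0.0244 and levels of 121 ± 4.62, 130.3 ± 3.87 and 122 ± 4.26 CPM.

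Among the 5 genes themselves, Slc2a1 and Ldha were the most alike, with a difference of 0.150, followed by Ldha and Gapdh with 0.154. Other genes were closer still: 40 lay nearer to Slc2a1 than Ldha did, 108 nearer to Ldha than Slc2a1 did, and 266 nearer to Gapdh than Ldha did. Vegfa was nearest to Slc2a1, with 0.251, and 57 other genes lay nearer to Vegfa than that. Hif1a was far from all 4 targets: its nearest was Gapdh, with 0.509, and 10845 of the 11264 genes were nearer.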

How the data were processed

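RNA of 9 libraries was analysed, 3 per group, with groups and replicate numbers taken from the sample titles. The authors deposited raw counts for 30560 Ensembl IDs in each library. Per the submitters' processing notes, the build was rn6 and the tools were featureCounts 2.0.1, STAR 2.7.3a, DESeq2 1.32.0 and Trimmomatic 0.39. Annotation release, strandedness and the counting of multi-mapping reads are not given there, and the files do not show whether their gene IDs come from an annotation of that build.

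The tests used edgeR 4.0.16 (R 4.3.3), with filterByExpr (minimum count 10, minimum total 15), which left 15879 genes, TMM scaling, and 1 quasi-likelihood fit of all 9 libraries with a mean per group. The Benjamini-Hochberg adjustment covered all genes tested, at a threshold of 0.05. A standard error is the log2 fold change divided by the square root of F. Ratios within a library were compared by exact permutation tests. Nearest genes were named by smallest profile difference, at most 2 per direction of change. Alternatives were RLE, upper-quartile and total count scaling, 2 other filters, DESeq2 1.42.0, limma-voom (limma 3.58.1), fits of 2 groups, a replicate block and left-out libraries. The 5 genes, lists and tests were chosen with earlier results of these data known. Lists of other hypoxia genes and of cell type markers, written by symbol, were not used here, since 0 of the 47357 genes in the RefSeq table carry an Ensembl ID. The positions and the ratios of neighbouring genes were added after seeing the data.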

Additional observations from a re-analysis of the deposited data

How the results depend on the processing

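For Vegfa, Slc2a1, Ldha and Gapdh, all 216 fold changes under alternatives, left-out libraries included, had the same direction and side of the threshold as reported. Of the 54 such values for Hif1a, 46 did. For H/R-DMSO against normoxia, Hif1a passed the threshold with upper-quartile scaling (log2 fold change 0.11), total count scaling (0.26), a mean of at least 1 CPM (0.10) and the replicate block (0.09), and ranged from 0.08 to 0.12 with a library left out. For H/R-AS8351 against normoxia it passed with total count scaling (0.16) and ranged from -0.01 to 0.07 with a library left out. Apart from the total count, whose shift of all genes is given above, the cause was not tested. All 54 counts of called genes over both directions were within 1.5 times of 8364, 3671 and 6257, as with the replicate block (8539, 3940 and 6468 genes), which changed no other call of the 5 genes. Counts per direction moved more: with total count scaling the higher and lower genes went from 4361 and 4003 to 7282 and 2515 after H/R and from 3127 and 3130 to 5875 and 1786 for H/R-AS8351 against normoxia, and the genes lower with AS8351 from 1583 to 2383. Without replicate 2 of H/R-AS8351 the last were 1042. Replicate numbers gave no clear pairing: across genes, the deviations of same-numbered libraries had correlations from -0.023 to 0.042, and those of differently numbered ones from -0.045 to 0.026. All 72 ratios to Gapdh with a library left out had the direction reported, in a design too small to reach the threshold. The positions of the targets on total count scaling were between 41.1% and 46.8%. Depth did not limit these genes, with at least 4585 counts in each library.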
